A study of Rattus norvegicus with 24 samples.

Results

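The nuclear genes for respiratory complexes II to V and cytochrome c were measured in 24 rats (male Sprague Dawley), with the nucleus accumbens of each rat on its own Affymetrix Rat Transcriptome Array. The members were all gene symbols of the deposited table that begin with Uqcr, Atp5 or Cox followed by a number from 4 to 8, the succinate dehydrogenase genes Sdha, Sdhb, Sdhc and Sdhd, and Cyc1, Cycs and Usmg5. For each symbol the transcript cluster with the highest mean signal over the 24 arrays was used, a cluster being the group of array probes that reads 1 locus. This gave 55 symbols on 52 distinct clusters, of 68842 clusters on the array. The symbols Uqcr and Uqcr11, Cox7a2 and Cox7a2l2, and Cox6c-ps1 and Cox6c1 each shared a cluster. Of the 52 clusters, 24 passed the filter for testing, a mean log2 signal in the controls above 9.45, and 28 did not.

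Rats in the SR group (shock resistant, n = 6) had kept taking methamphetamine (METH) although lever presses were punished with footshocks, and rats in the SS group (shock sensitive, n = 6) had cut their intake under the same punishment. The control rats (CT, n = 6) had self-administered saline. Saline rats yoked to an SR partner (YSR, n = 3) or to an SS partner (YSS, n = 3) received footshocks that did not depend on their own presses. The accumbens was taken about a month into withdrawal, on the day that followed a repeated test of cue-induced drug seeking. Sorting into SR and SS was done afterwards from the behaviour, so drug history, shock history, the last test and traits present beforehand cannot be told apart. The sample labels of CT, SR and SS carry a mark, "(2)", that the yoked samples lack and that the sources used here do not explain. If that mark stands for a batch, batch and group cannot be told apart in any comparison with YSR or YSS.

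The respiratory chain of the inner mitochondrial membrane passes electrons from nutrients to oxygen. Complex II (succinate dehydrogenase) feeds them in from succinate, complex III (the cytochrome bc1 complex) hands them on to cytochrome c, and complex IV (cytochrome c oxidase) gives them to oxygen. Complex V, the ATP synthase, makes ATP from the proton gradient that the chain builds up. Complex II is made from nuclear genes alone, while complexes III, IV and V combine nuclear subunits with others encoded by mitochondrial DNA. Neurons spend much of this ATP on restoring ion gradients after firing.

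The arrays differed in their median over all clusters, a level under the median of the negative controls on every array. Over the tested clusters the median was between 11.73 and 11.86 on the SR arrays, between 11.61 and 11.84 on the CT arrays and between 11.76 and 11.89 on the SS arrays. The median log2 signal of all 68842 clusters was between 4.87 and 5.06 on the SR arrays, between 4.97 and 5.22 on the CT arrays and between 4.97 and 5.03 on the SS arrays. The markers of medium spiny neurons, the main neurons of the accumbens, were present: 10 of 11 were above the 95th percentile of the negative controls on at least 1 array, and the mean level over the list was between 10.87 and 12.79 on the 24 arrays. No striated muscle marker (0 of 9) and no endothelial marker (0 of 5) reached that percentile on any array. It is called the negative-control level below. The mean level of 5 choroid plexus markers reached 8.96 on 1 SS array and was at most 5.39 in the other groups.

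Nuclear subunits of complexes II to V were higher in SR than in CT. Of the 24 tested members, 16 were higher at an unadjusted p under 0.05 (66.7%) and 0 were lower, against 15.9% higher and 5.38% lower of all 9044 tested clusters. Among the 16, both complex III clusters carry symbols of the gene Uqcrb, and Cycs encodes a carrier and not a subunit. The clusters of Usmg5 and Cycs and the brighter Uqcrb cluster lie on another chromosome than their gene. Among the 3909 tested clusters that carry a RefSeq gene, 26.3% were higher. The median log2 difference of the 24 members was 0.20, beside 0.03 over all tested clusters and 0.11 over those with a RefSeq gene. After adjustment over all tested clusters (limma, Benjamini-Hochberg), 2 members were called, Usmg5 and Atp5b, where 1.99% of all tested clusters were called. Without CT replicate 3 the 16 became 10. With SR replicate 3 left out the 2 adjusted calls became 0. They became 7 and 8 when SR replicates 1 and 2, respectively, were left out, and 1 without any of CT replicates 2, 3, 5 and 6 or SR replicates 4, 5 and 6. In bulk tissue, a different share of the cells that express a gene and a different amount of RNA per cell cannot be told apart.

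**Figure D1:**
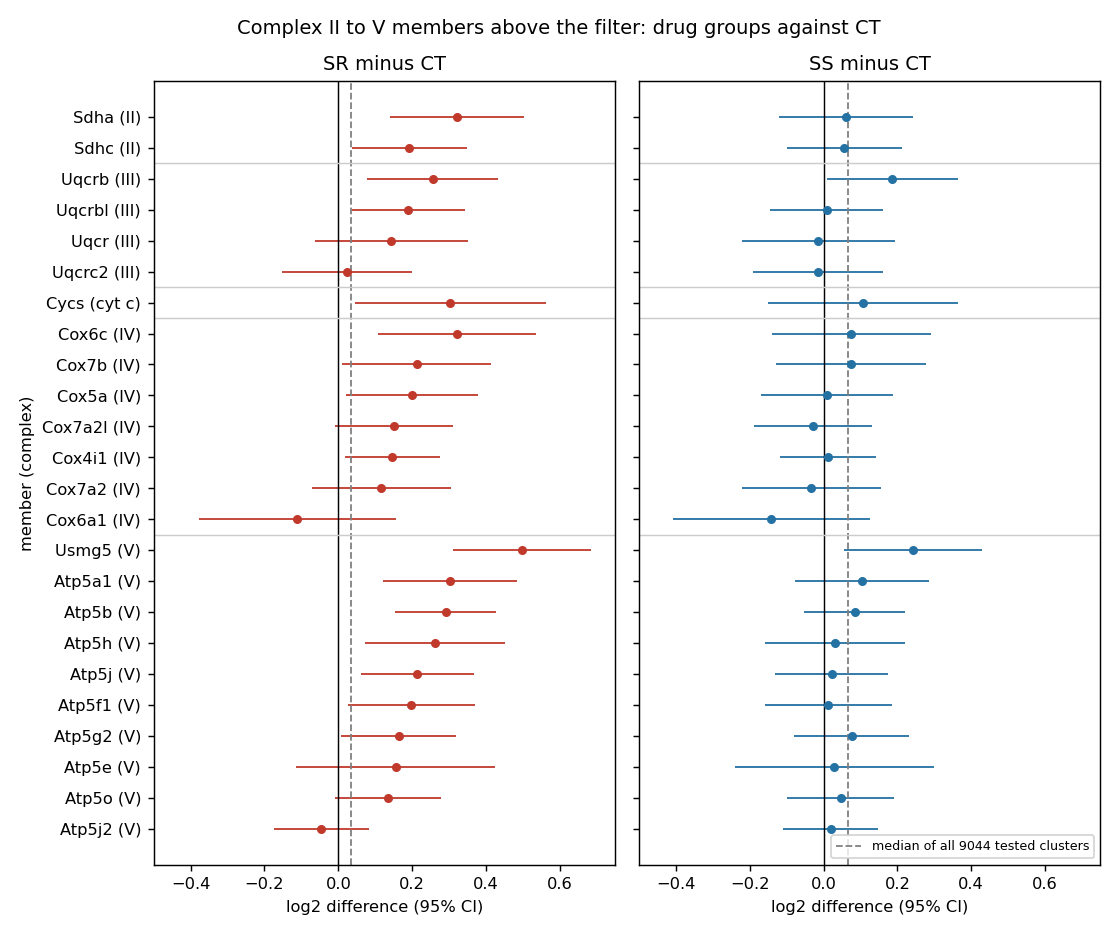
Log2 difference with its 95% confidence interval for the 24 tested members, SR minus CT on the left and SS minus CT on the right, grouped by complex (cyt c, cytochrome c). The SR differences lay between -0.11 and 0.50 with 22 of 24 above 0. The SS differences lay between -0.14 and 0.24 around a median of 0.03, with 19 of 24 above 0. Of all tested clusters, 57.0% were above 0 for SR minus CT (78.2% of those with a RefSeq gene) and 72.5% for SS minus CT. For YSR minus CT, not drawn, 22 of 24 members were above 0 too, beside 70.1% of all tested clusters.

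Usmg5 (current name Atp5mk) encodes DAPIT, a small membrane subunit of ATP synthase, and had the largest difference among the tested members. Its signal in CT was lowest at 13.54, with a median of 13.82 and a highest value of 13.93. In SR it ran from 14.12 through a median of 14.24 to 14.40, and in SS from 13.89 through 13.99 to 14.12. Every SR array lay above every CT and every SS array, a separation that 1.69% of the tested clusters showed for SR above CT and 0.31% for SR above SS. The difference between SR and CT was 0.50 ± 0.09 on the log2 scale (SE), 1.41-fold (adjusted p = 0.0159). This cluster spans only 339 bp on chromosome 10, whereas RefSeq places Atp5mk on chromosome 1, so it may read a copy of the gene or both. The cluster at the gene's own locus was under the filter (mean 9.30 ± 0.18 in CT and 9.48 ± 0.15 in SR, SD, n = 6 each) and its difference was 0.18 ± 0.09 (SE, unadjusted p = 0.0473, adjusted p = 0.262 over all clusters).

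Atp5b (Atp5f1b) encodes the catalytic beta subunit of ATP synthase and is read at its own locus. Its CT arrays lay between 14.27 and 14.51 (median 14.41), its SR arrays between 14.50 and 14.80 (median 14.73) and its SS arrays between 14.42 and 14.56 (median 14.47). All SR arrays but 1 were above every CT array, and 4 of 6 were above every SS array. Atp5b was 1.22-fold higher in SR than in CT (log2 difference 0.29 ± 0.07, SE, adjusted p = 0.0308). The yoked groups overlapped CT, with 14.58, 14.52 and 14.45 in YSR and 14.53, 14.28 and 14.33 in YSS.

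**Figure D2:**
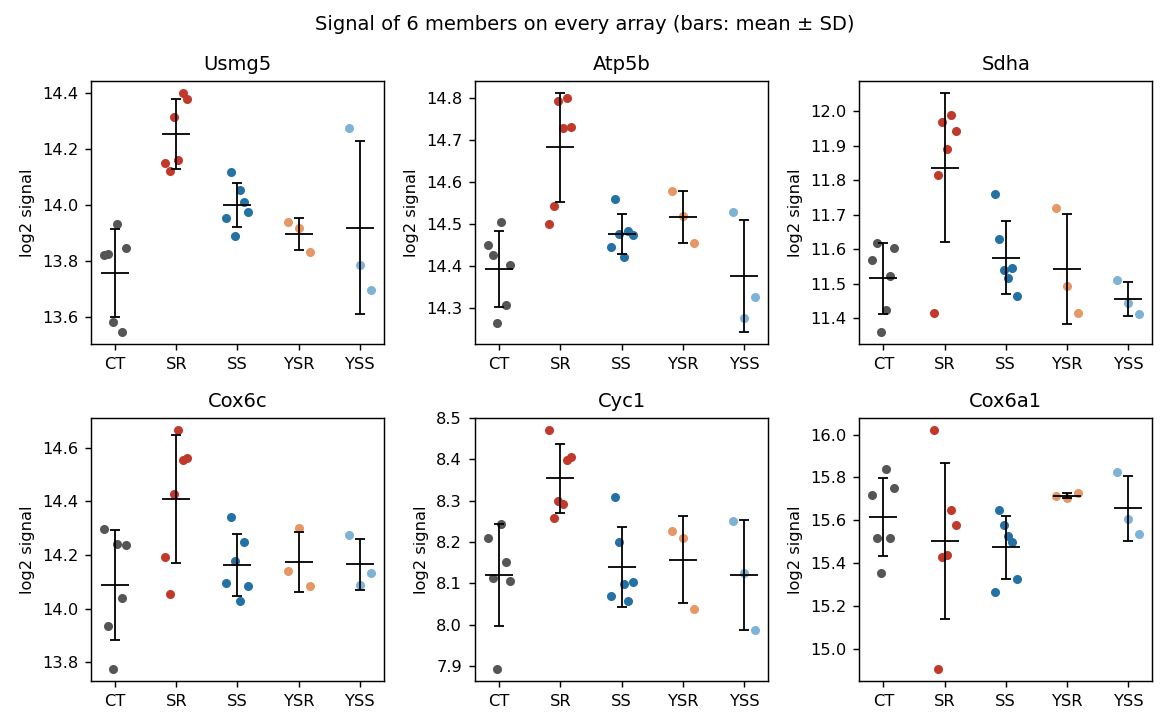
Log2 signal of Usmg5, Atp5b, Sdha, Cox6c, Cyc1 and Cox6a1 on each array, by group, with the group mean and SD; the vertical axes differ and do not start at 0. Usmg5 and Cyc1 separate SR from CT completely, which 1.69% of the tested clusters did with SR above CT. Cyc1 is under the filter, where that share was not computed. Sdha has 1 low SR array at 11.41, and Cox6a1 spreads from 14.90 to 16.02 within SR.

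Other ATP synthase subunits were higher in SR without passing the adjusted threshold. In complex V, 7 of 10 tested members were higher at an unadjusted p under 0.05, with a median difference of 0.21. Atp5a1 (Atp5f1a), the alpha subunit that alternates with beta in the catalytic head, was 13.51 ± 0.10 in CT and 13.82 ± 0.20 in SR (SD, n = 6 each), a 1.23-fold difference (adjusted p = 0.0603). In the peripheral stalk, which holds the head still, the differences were 0.26 for Atp5h (Atp5pd), 0.21 for Atp5j (Atp5pf) and 0.20 for Atp5f1 (Atp5pb), with adjusted p of 0.103, 0.0975 and 0.168. A separate Atp5f1 cluster on the same chromosome gave 0.20 too (adjusted p = 0.178). The other tested members did not pass: the fourth stalk subunit, Atp5o (OSCP, now Atp5po), gave 0.13 (unadjusted p = 0.067), the central stalk subunit Atp5e 0.16 (unadjusted p = 0.243), and the membrane subunit Atp5j2 (Atp5mf) gave -0.05 (unadjusted p = 0.467).

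The c ring of ATP synthase, the rotor that turns as protons pass, is encoded by Atp5g1, Atp5g2 and Atp5g3 (now Atp5mc1, Atp5mc2 and Atp5mc3), genes for the same mature protein. Only Atp5g2 passed the filter. It was 11.41 in CT and 11.57 in SR, a difference of 0.16 ± 0.08 (SE, adjusted p = 0.208). Atp5g1 and Atp5g3 were under the negative-control level on all 24 arrays, and their differences were 0.12 and 0.11 (unadjusted p = 0.0986 and 0.103).

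In complex II both tested members were higher in SR and none was called after adjustment. Sdha, the flavoprotein that oxidises succinate, lay between 11.36 and 11.62 in CT (median 11.55), between 11.41 and 11.99 in SR (median 11.92) and between 11.46 and 11.76 in SS (median 11.54). Of the 6 SR arrays, 5 were above every CT and every SS array, and the remaining SR array, at 11.41, was within the CT range. The difference between SR and CT was 0.32 ± 0.09 (SE), 1.25-fold (adjusted p = 0.0542). Sdhc, a membrane anchor, was 11.26 ± 0.14 in CT and 11.45 ± 0.10 in SR (SD, n = 6 each), 1.14-fold higher (adjusted p = 0.14).

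The other complex II genes were too dim to pass the filter and lay under the negative-control level on all 24 arrays. Sdhb, the iron-sulfur subunit, differed by 0.13 between SR and CT (unadjusted p = 0.0475). Sdhd, the other membrane anchor, differed by 0.21 (unadjusted p = 0.0429). Neither was called after adjustment over all clusters (adjusted p = 0.263 and 0.253), and as differences between signals under that level they carry little weight.

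In complex III, 2 of 4 tested clusters were higher, and both carry symbols of the same gene. Uqcrb encodes a small subunit of the bc1 complex. Its own locus on chromosome 7, listed under the older symbol Uqcrbl, was 10.36 ± 0.12 in CT and 10.54 ± 0.15 in SR (SD, n = 6 each), a difference of 0.19 (adjusted p = 0.139). The brighter Uqcrb cluster spans 503 bp on chromosome 1, away from the gene, and differed by 0.26 (adjusted p = 0.0898). Uqcrc2, a core protein, did not follow: it was 12.95 ± 0.15 in CT and 12.97 ± 0.19 in SR (SD, n = 6 each), with a difference of 0.02 and a 95% confidence interval from -0.15 to 0.20. Uqcr (Uqcr11), a small subunit, gave 0.14 (unadjusted p = 0.164).

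Cyc1, the cytochrome c1 of complex III, was under the filter and under the negative-control level on all 24 arrays. Its CT arrays lay between 7.89 and 8.24 (median 8.13), its SR arrays between 8.26 and 8.47 (median 8.35) and its SS arrays between 8.06 and 8.31 (median 8.10). All 6 SR arrays were above every CT array and above every YSR array, and 3 of 6 were above every SS array. Among the tested clusters, 1.69% had every SR array above every CT array. That share was not computed for clusters under the filter or for SR against YSR. In the fit over all 68842 clusters its difference was 0.23 ± 0.07 (SE, unadjusted p = 0.00283, adjusted p = 0.107), and no fold is given. The other core protein, Uqcrc1, differed by 0.23 (unadjusted p = 0.0159). The hinge protein Uqcrh and the Rieske protein Uqcrfs1 differed by 0.02 and 0.03 (unadjusted p = 0.719 and 0.704).

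Cytochrome c itself, encoded by Cycs, carries electrons from complex III to complex IV. The brightest Cycs cluster spans 1200 bp on chromosome 18, while the gene lies on chromosome 4. It was 11.74 ± 0.31 in CT and 12.05 ± 0.17 in SR (SD, n = 6 each), 1.23-fold higher (adjusted p = 0.159). The cluster at the gene's own locus gave 0.26 ± 0.13 (SE, unadjusted p = 0.0516). Between YSR and CT the own-locus cluster differed by 0.33 (unadjusted p = 0.0443) and the brightest cluster by 0.26, which did not pass. Between SR and YSR the differences were -0.07 and 0.04, so the higher Cycs signal was not particular to SR. Without CT replicate 3, the lowest array of its group, the brightest Cycs cluster differed by 0.19 and no longer passed an unadjusted p of 0.05.

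In complex IV, 4 of 7 tested members were higher, with a median difference of 0.15. Cox6c, a small subunit, lay between 13.78 and 14.30 in CT (median 14.14), between 14.06 and 14.67 in SR (median 14.49) and between 14.03 and 14.34 in SS (median 14.14). Of the 6 SR arrays, 4 were above every CT array and the other two were within the CT range. The difference was 0.32 ± 0.10 (SE), 1.25-fold (adjusted p = 0.0803). Cox7b, another small subunit, differed by 0.21 (adjusted p = 0.211), Cox5a, which carries a site where thyroid hormone metabolites are known to bind, by 0.20 (adjusted p = 0.179) and Cox4i1 by 0.15 (adjusted p = 0.175). Cox5a was above the negative-control level on 2 of 24 arrays, both SR, and Cox4i1 on 9. That level was set per array and was lowest on the 2 arrays with Cox5a above it, SR replicates 5 (9.63) and 6 (9.64). On SS replicate 4 it was 10.32, the highest.

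Complex IV has tissue isoforms, and those known from other tissues were not detected. Among the widely expressed forms, Cox6a1 and Cox7a2 were above the negative-control level on all 24 arrays. The second isoform Cox4i2, the heart and muscle forms Cox6a2 and Cox8b and the testis forms Cox6b2 and Cox8c were under that level on all 24 arrays, and their SR minus CT differences were -0.15, -0.10, -0.08, -0.09 and -0.25 with unadjusted p between 0.0582 and 0.344. Cox8a, the widely expressed partner of Cox8b and Cox8c, was also under that level and differed by 0.11 (unadjusted p = 0.132). The Cox6b1 cluster lies on chromosome 2, away from the gene, and gave -0.05 (unadjusted p = 0.563). No cluster carried the symbol Cox7a1, which is not analysed here.

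Among the widely expressed isoforms, Cox6a1 gave a negative difference that did not pass. It lay between 15.35 and 15.84 in CT (median 15.62) and between 14.90 and 16.02 in SR (median 15.51). The lowest and the highest values of all 24 arrays were both in SR. The difference was -0.11 ± 0.13 (SE, unadjusted p = 0.395), with a 95% confidence interval from -0.38 to 0.16, and it was 0.0082 without SR replicate 2. Cox7a2, whose brightest cluster lies on chromosome 14 at the copy Cox7a2l2, gave 0.12 (unadjusted p = 0.214), and its own locus on chromosome 8 gave 0.03 (unadjusted p = 0.751). Cox7a2l, a related protein that helps join complexes III and IV, gave 0.15 (unadjusted p = 0.0628).

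Over all 28 members under the filter, 20 had a positive difference between SR and CT and 7 had an unadjusted p under 0.05, all 7 higher. In the fit over all 68842 clusters, 5.72% were higher at that threshold (3941 clusters, with 8934 lower). The median difference there was -0.07, and 32.7% of the differences were positive. The 7 were Sdhb, Sdhd, Cyc1, Uqcrc1, Cox7c, Atp5c1 and Atp5sl. Cox7c, a small complex IV subunit, differed by 0.27. The Atp5c1 cluster, for the gamma shaft of ATP synthase, also covers another gene, Taf3, and differed by 0.13. Atp5sl, now Dmac2, is matched by its old name only and is known as an assembly factor of complex I. All 28 clusters were at or under the 95th percentile of the negative controls on all 24 arrays, which limits what their differences can show. The median of the negative controls was lower, between 5.83 (YSS replicate 1) and 6.08 (SS replicate 2), and was not used as a cut.

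To show the start regions of the members, RefSeq promoters (assembly GRCr8, 250 bases before to 50 bases after the transcription start) were available for 42 of the 52 RefSeq genes. They were searched on both strands for the core letters of nuclear respiratory factor 1 (GCATGCGC), the ETS factors that include GABP (CCGGAAG), YY1 (AAGATGGC) and the oestrogen-related receptors (TCAAGGTCA), factors known to act on respiratory chain genes. At least 1 of the 4 was found in 23 of the 42 (54.8%), beside 13.7% of all 33469 promoters. The ETS letters were in 15 (35.7%, beside 8.75%), the NRF1 letters in 8 (19.0%, beside 2.47%), the YY1 letters in 7 (16.7%, beside 3.17%) and the receptor letters in 2 (4.76%, beside 0.433%). Of the 12 promoters whose gene was among the 16 higher members, 7 held at least 1 of the 4, and of the other 30 promoters 16 did. The promoters of Sdha and Atp5f1b held none of these letters. A match is a description of the sequence and not a site.

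The promoters of 5 member genes with a cluster that was higher in SR are printed below 5′ to 3′ with the matched letters in capitals, YY1 in Sdhc (chr13:86097976-86098275, minus strand), NRF1 in Cycs (chr4:80984718-80985017, minus strand), ETS at 2 places in Cox4i1 (chr19:65630133-65630432, plus strand), ETS in Atp5f1a (chr18:73567287-73567586, plus strand) and ETS in Atp5mk (chr1:255921998-255922297, minus strand). For Cycs and Atp5mk (Usmg5) these promoters belong to the gene's own locus, whereas the clusters counted as higher lie on chromosomes 18 and 10. The own-locus cluster of Cycs did not pass between SR and CT, and that of Usmg5 was under the filter and above the negative-control level on 1 array.
Sdhc: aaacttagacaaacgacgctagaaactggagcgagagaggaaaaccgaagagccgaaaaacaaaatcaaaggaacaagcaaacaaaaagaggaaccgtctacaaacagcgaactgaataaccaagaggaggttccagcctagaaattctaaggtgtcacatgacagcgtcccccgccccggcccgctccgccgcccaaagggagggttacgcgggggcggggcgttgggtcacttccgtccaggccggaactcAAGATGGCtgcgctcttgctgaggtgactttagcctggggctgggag
Cycs: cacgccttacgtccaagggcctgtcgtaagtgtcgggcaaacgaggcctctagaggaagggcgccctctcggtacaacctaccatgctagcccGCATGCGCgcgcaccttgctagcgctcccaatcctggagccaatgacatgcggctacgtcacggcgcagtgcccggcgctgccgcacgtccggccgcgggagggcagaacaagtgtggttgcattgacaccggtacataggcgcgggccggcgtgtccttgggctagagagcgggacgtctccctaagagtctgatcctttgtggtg
Cox4i1: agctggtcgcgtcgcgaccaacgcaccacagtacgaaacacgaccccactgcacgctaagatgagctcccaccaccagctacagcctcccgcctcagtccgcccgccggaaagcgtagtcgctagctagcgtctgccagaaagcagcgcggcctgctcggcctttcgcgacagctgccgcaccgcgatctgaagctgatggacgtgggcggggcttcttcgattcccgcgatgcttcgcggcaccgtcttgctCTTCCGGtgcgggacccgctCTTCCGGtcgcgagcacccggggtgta
Atp5f1a: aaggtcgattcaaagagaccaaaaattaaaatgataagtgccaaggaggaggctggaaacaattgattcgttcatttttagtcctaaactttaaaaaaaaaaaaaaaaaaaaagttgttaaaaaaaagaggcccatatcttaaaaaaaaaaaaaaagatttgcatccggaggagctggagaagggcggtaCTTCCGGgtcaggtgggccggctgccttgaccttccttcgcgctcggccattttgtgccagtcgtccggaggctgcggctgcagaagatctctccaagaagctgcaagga
Atp5mk: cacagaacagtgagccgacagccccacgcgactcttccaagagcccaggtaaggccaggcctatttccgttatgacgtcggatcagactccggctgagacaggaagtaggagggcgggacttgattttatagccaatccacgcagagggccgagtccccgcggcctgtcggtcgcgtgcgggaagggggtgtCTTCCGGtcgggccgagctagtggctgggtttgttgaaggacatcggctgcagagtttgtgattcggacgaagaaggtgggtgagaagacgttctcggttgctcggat

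Members were also higher in SR than in SS, the comparison of rats that had both taken METH. Of 24 tested members, 12 were higher at an unadjusted p under 0.05 and 0 lower, against 5.76% higher and 6.77% lower of all tested clusters and 11.1% higher of those with a RefSeq gene. Their median difference was 0.17, beside -0.04 over all tested clusters and 0.07 over those with a RefSeq gene. Of the 24 differences, 23 were positive, beside 42.7% of all tested clusters and 71.0% of those with a RefSeq gene. None of the 9044 clusters was called after adjustment, and the smallest adjusted p among the members was 0.378. The smallest p values were those of Atp5b (difference 0.21, unadjusted p = 0.00485), Sdha (0.26, unadjusted p = 0.00677) and Usmg5 (0.25, unadjusted p = 0.0101). The other 9 were Atp5j, Atp5h, Atp5a1 and Atp5f1 of the ATP synthase, Cox6c, Cox5a, Cox4i1 and Cox7a2l, and the Uqcrb locus on chromosome 7. Under the filter, Cyc1 (0.21, unadjusted p = 0.00565) and Atp5g3 (0.19, unadjusted p = 0.00687) were higher too. The count of 12 was 4 without SR replicate 5, 5 without SS replicate 4 and 7 without any of SR replicates 3, 4 and 6 or SS replicate 6. Without SR replicate 1, 2 members were called after adjustment.

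SS and CT differed little in these genes. Of the 24, 2 were higher at an unadjusted p under 0.05, Usmg5 (difference 0.24, unadjusted p = 0.0136) and the Uqcrb cluster on chromosome 1 (0.19, unadjusted p = 0.0409), and 0 were lower. Over all tested clusters, 5.97% were higher and 0.962% lower. The count became 0 with another quantile normalization, equal array medians or own-locus clusters, and 1 without any of replicates 2, 3, 5 and 6 of either group. The members' median difference of 0.03 was below the 0.07 of all tested clusters. Sdha was 11.58 ± 0.11 in SS against 11.52 ± 0.10 in CT (SD, n = 6 each), a difference of 0.06 with a 95% interval from -0.12 to 0.24. For Usmg5, 5 of 6 SS arrays were above every CT array. None of the 9044 clusters was called after adjustment, here or in the comparisons with the yoked groups below.

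The yoked rats, which received footshocks without METH, showed few differences in these genes, with 3 arrays a group. Between YSR and CT, 1 member was higher at an unadjusted p under 0.05 and 0 were lower, against 2.65% and 0.343% of all clusters, and the median member difference was 0.09 beside 0.07. That member was Cox7b, at 11.11, 10.77 and 10.88 in YSR and between 10.23 and 10.84 in CT, a difference of 0.31 (unadjusted p = 0.0181). The tested own-locus Cycs cluster, not among the 24, was higher in YSR too (0.33, unadjusted p = 0.0443). It was above the negative-control level on 0 of 3 YSR arrays. Between YSS and CT, 1 member was higher, the Uqcrb cluster on chromosome 1 (difference 0.24, unadjusted p = 0.0346), and 0 were lower, against 2.19% and 0.63%, and the median was 0.02 beside 0.03. The Uqcrb call was lost without any of CT replicates 2, 5 and 6 or YSS replicates 1 and 2, with equal array medians, with only the compared groups and with own-locus clusters. Between YSR and YSS, Cox7b alone was higher (difference 0.36, unadjusted p = 0.0163) and 0 members were lower, against 0.641% and 0.321%. Its 3 YSR arrays were all above its YSS arrays at 10.60, 10.56 and 10.52. The share of all clusters with that separation was not computed, and groups of 3 arrays separate easily. Without YSR replicate 1, the highest, Cox7b passed neither comparison. Under the filter, the complex III subunit Uqcrq differed by 0.23 between YSR and CT (unadjusted p = 0.0334), and the Cox6b1 cluster on chromosome 2 by 0.25 between YSS and CT (unadjusted p = 0.0244).

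The SR group set against the YSR group gave 2 members at an unadjusted p under 0.05, both higher, against 3.54% higher and 2.79% lower of all clusters. The groups were compared unpaired, since the sample labels do not say which rats were yoked to each other. Usmg5 differed by 0.36 (unadjusted p = 0.0037), with 13.94, 13.92 and 13.83 in YSR, all under the lowest SR array at 14.12. The share of all clusters with that separation was not computed. Sdha differed by 0.29 (unadjusted p = 0.0117), with 11.72, 11.49 and 11.41 in YSR, and 5 of 6 SR arrays were above all 3. The members' median difference was 0.13, beside -0.05 over all tested clusters and 0.05 over those with a RefSeq gene. Oligodendrocyte markers were also higher in SR than in YSR, 3 of 6 with a median of 0.39, and their part in the members' difference was not tested. With SR replicates 1 and 2 left out in turn, the count of 2 was 9 and 6. It was 4 when CT replicate 3 was left out and 1 when YSR replicate 3 was. For SS against YSS, 0 of 24 members passed in either direction, against 3.86% higher and 1.6% lower, and the median was -0.00093, while Uqcrh, under the filter, differed by -0.20 (unadjusted p = 0.0223). The difference between these contrasts, SR minus YSR less SS minus YSS, had an adjusted p of 0.876 or more for every tested member, and 0 of 24 had an unadjusted p under 0.05. No member was called in the F test over the 5 groups either, where Usmg5 had the smallest adjusted p (0.106).

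All 4 complexes had a positive median difference between SR and both CT and SS. For SR minus CT the median difference was 0.26 in complex II (2 clusters), 0.17 in complex III (4), 0.15 in complex IV (7) and 0.21 in complex V (10). For SR minus SS the medians were 0.20, 0.11, 0.15 and 0.19 in the same order, and for SS minus CT they were 0.06, -0.0029, 0.0098 and 0.04. Within complex V alone the differences between SR and CT ran from -0.05 to 0.50. Set against the tested clusters with a RefSeq gene, complex IV in SR minus YSR (0.0472) was under their median (0.0535), and complex II in SS minus CT (0.0584) was above it (0.0449). Whether the complexes differ from each other was not tested.

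**Figure D3:**
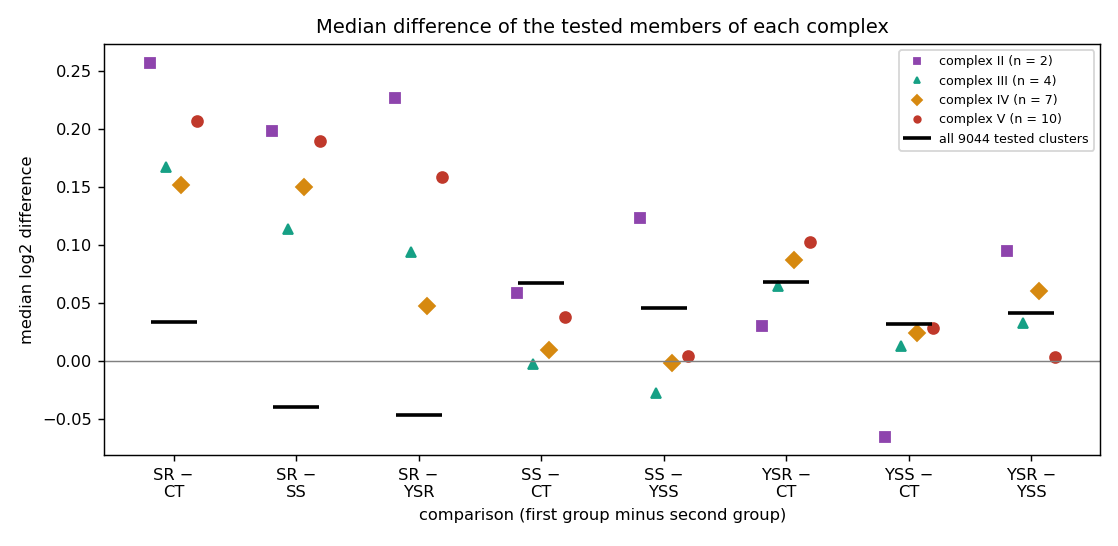
Median log2 difference of the tested members of complexes II, III, IV and V in the 8 comparisons, with the median of all 9044 tested clusters as a black bar. In the 3 comparisons of SR with CT, SS and YSR every complex lies above the bar, and for SS minus CT every complex lies under it.

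The mean level of the members varied from array to array, also within a group. As the mean deviation of the 24 tested members from their CT means, SR arrays were between -0.007 and 0.30 (0.19 ± 0.12, SD, n = 6), SS arrays between -0.01 and 0.07 (0.04 ± 0.03, SD, n = 6) and CT arrays between -0.16 and 0.10. On 4 SR arrays (replicates 3, 4, 5 and 6) it lay between 0.23 and 0.30, and the other 2 were at 0.11 and -0.007. These 4 arrays also had the lowest medians over all clusters within SR, from 4.87 to 4.92, while the other 2 had 4.97 and 5.06. The lowest member mean of all, -0.16, was on CT replicate 3, which had the highest median over all clusters (5.22). The same array had the lowest median over the tested clusters (11.61). A YSS array with a median of 4.92 had a member mean of 0.15. The part of the array median in the SR difference was not tested beyond a fit that holds it as a covariate, an alternative added after the data were seen. In that fit the members' median SR minus CT difference was 0.09, beside -0.03 over all tested clusters, and 4 members were higher at an unadjusted p under 0.05 (Usmg5, Atp5b, Sdha and Cox5a), beside 4.66% of all tested clusters, Cox6a1 was lower, and 0 were called after adjustment. For SR minus SS it gave a median of 0.11 and 5 members higher, beside 2.71% of all tested clusters.

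**Figure D4:**
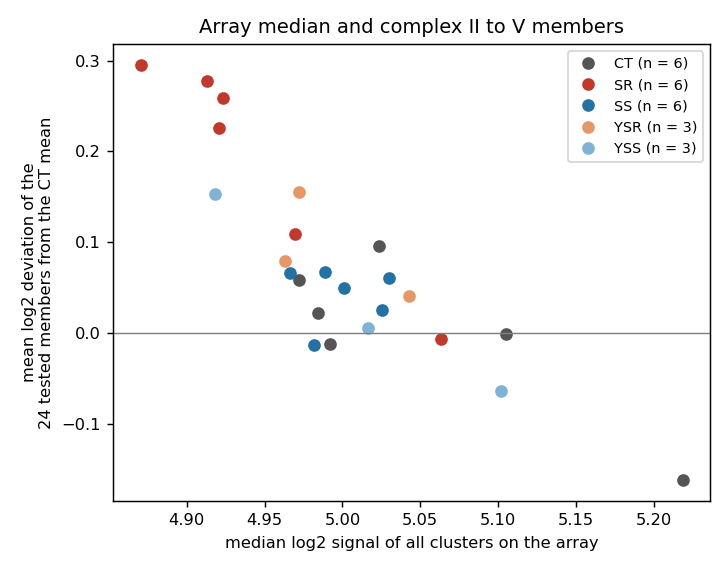
Mean log2 deviation of the 24 tested members from their CT means (vertical) against the median log2 signal of all 68842 clusters (horizontal), 1 point per array, coloured by group. SR replicate 5, with the lowest array median, has the highest member mean (0.30), CT replicate 3, with the highest median, has the lowest (-0.16), and 4 of the 6 SR arrays lie at the upper left.

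The subunits encoded by mitochondrial DNA gave high signals. The list searched for them also named complex I subunits, so it is not limited to the complexes of the 24 nuclear members. All 10 clusters found for them were tested, among them COX1 at 19.71 ± 0.12 in CT, 19.91 ± 0.03 in SR and 19.91 ± 0.02 in SS (SD, n = 6 each). The COX1 SDs were smaller in SR and SS than in CT. Whether signals this high limit the differences that these clusters can show was not tested. Of the 10, 7 were higher at an unadjusted p under 0.05 in SR than in CT, 7 in SS than in CT and 3 in YSR than in CT, beside 15.9%, 5.97% and 2.65% of all tested clusters, and 0 in YSS than in CT. The median differences from CT were 0.17 in SR, 0.17 in SS, 0.15 in YSR and 0.08 in YSS, and 0 of the 10 were called after adjustment in any of these comparisons. The median difference between SR and SS was -0.0073, with 0 of 10 at an unadjusted p under 0.05. ATP6, an ATP synthase subunit, differed by 0.19 between SR and CT (adjusted p = 0.0652), by 0.21 between SS and CT (adjusted p = 0.381) and by -0.01 between SR and SS. Over the 10 clusters the SS arrays lay between 0.14 and 0.21 above the CT mean and did not overlap the CT arrays, whose highest was 0.11. Among single tested clusters, 1.19% had every SS array above every CT array, and no share was computed for means over sets. Over the 24 nuclear clusters the same SS arrays overlapped CT, and the nuclear and mitochondrial sets were not compared by a test.

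**Figure D5:**
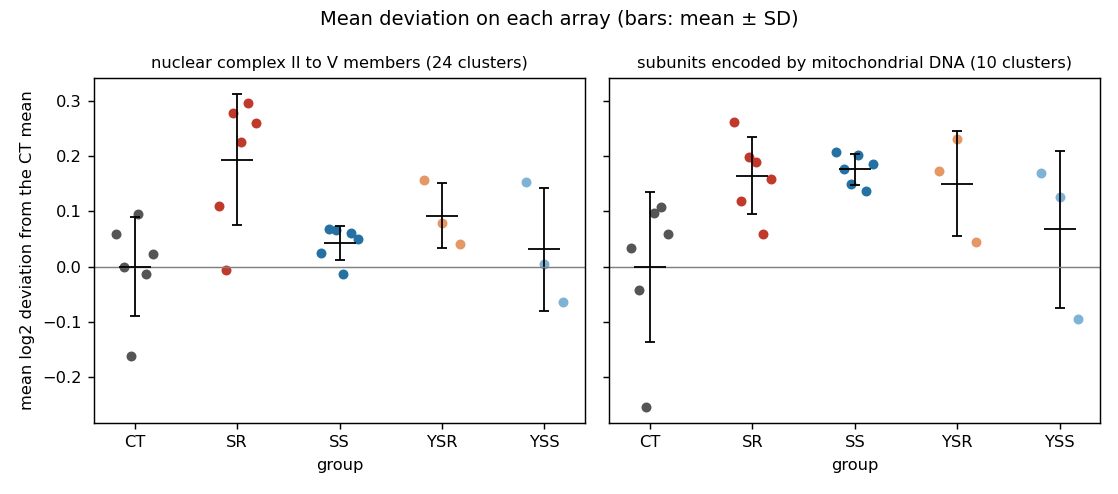
Mean log2 deviation from the CT mean on each array, by group, for the 24 tested nuclear members (left) and the 10 clusters of subunits encoded by mitochondrial DNA (right), with group mean and SD. The list searched for the right panel also named complex I subunits. On the left 5 of 6 SR arrays are above every SS array, and on the right, where the signals are high, the means are 0.16 ± 0.07 in SR, 0.18 ± 0.03 in SS and 0.15 ± 0.10 in YSR.

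Other nuclear genes of mitochondria were also higher in SR. Complex I, which feeds electrons from NADH into the same chain, had 12 of 20 tested clusters higher in SR than in CT and a median of 0.22. In complex I, 1 cluster was called after adjustment. Of all tested clusters 15.9% were higher (26.3% of those with a RefSeq gene, median 0.11), and 1.99% were called after adjustment. Of 27 tested proteins of the mitochondrial matrix, carriers and dynamics, 17 were higher and 0 lower, with a median of 0.20. Of them 3 were called after adjustment, the citrate synthase gene Cs (0.47, adjusted p = 0.0295), the mitochondrial creatine kinase gene Ckmt1 (0.28, adjusted p = 0.0381) and Mfn2, which fuses outer membranes (0.31, adjusted p = 0.0381).

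Of 11 tested assembly factors of complexes II to V, 3 were higher in SR than in CT and 1 lower, with a median of 0.13. This is close to the 26.3% of tested clusters with a RefSeq gene that were higher. Lrpprc, which stabilises mitochondrial messenger RNAs, differed by 0.22 (adjusted p = 0.0752), Cox15, needed for heme a, by 0.21 (adjusted p = 0.227) and Atpif1, the inhibitor of ATP synthase, by 0.13 (adjusted p = 0.182). Cox16, a factor for complex IV, went the other way at -0.19 (adjusted p = 0.0767). Of 4 tested regulators none passed: Ppargc1a, the coactivator known to drive mitochondrial biogenesis, differed by -0.07 (unadjusted p = 0.451), Gabpa by -0.06 (unadjusted p = 0.685) and Tfb1m by 0.20 (unadjusted p = 0.0881).

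Some markers of other cell types also differed between the groups at an unadjusted p under 0.05. Of all tested clusters, 15.9% were higher in SR than in CT (26.3% of those with a RefSeq gene) and 5.38% lower. For SS minus CT 5.97% were higher and 0.962% lower, and for SR minus SS 5.76% were higher. For SR minus YSR 3.54% were higher, for SS minus YSS 3.86% were higher and for YSS minus CT 0.63% were lower. Of 6 tested oligodendrocyte markers, 4 were higher in SR than in CT (median 0.27) and 2 in SS than in CT (median 0.32), and the mean level over the list was between 11.88 and 12.49 in CT, 12.20 and 12.97 in SR and 12.18 and 12.82 in SS. Between SR and SS, where 12 members differed, 0 of 6 oligodendrocyte markers did (median -0.0021). Against the yoked groups, 3 of 6 were higher in SR than in YSR (median 0.39) and 5 of 6 in SS than in YSS (median 0.56). Of 8 tested neuron markers, 1 was higher in SR than in CT, Eno2, a glycolytic enzyme of neurons (0.45, adjusted p = 0.0381), and 0 of 10 medium spiny neuron markers passed. That count of neuron markers is near the share of all tested clusters. All 8 neuron differences between SR and CT were positive, with a median of 0.10, beside 0.03 over all tested clusters and 0.11 over those with a RefSeq gene. Between SR and SS, 3 of 8 neuron markers were higher, Eno2, Nefl and Stmn2 (0.27, 0.44 and 0.30, adjusted p from 0.378 to 0.381). Of 3 tested astrocyte markers and 3 microglia markers 0 passed, and of 3 haemoglobin clusters 1 was lower, Hba1, by -0.44 (adjusted p = 0.225). All 3 haemoglobin clusters were lower in YSS than in CT (median -0.65). Of 3 interneuron markers 1, Calb2, was higher in SR than in CT (0.65, adjusted p = 0.203). Of 3 markers of cortical glutamatergic neurons 1, Slc17a7, was lower in SS than in CT (-1.79, adjusted p = 0.702), and it differed by 1.10 between SR and SS (unadjusted p = 0.206). The part of these markers in the members' differences was not tested.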

How the data were processed

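RNA of individual rats was hybridised to 24 arrays (5 groups). The authors deposited log2 signals per transcript cluster, made with Affymetrix Expression Console per the submitters' processing notes. The sources used here do not give the background correction, normalization or genome build. A further deposited table holds the authors' group averages (log2), SDs, fold changes and p-values, of which its annotation was used and its SDs were compared with those of the arrays. Clusters with a CT mean above that of the bioB spike-in (9.45) were tested, as in the study's methods, which left 9044. All arrays entered a single linear model (limma 3.58.1 with eBayes, R 4.3.3; tables in Python 3.11.15), which gave 8 two-sided comparisons, adjusted by Benjamini-Hochberg over all tested clusters. Members under the filter were fitted the same way with all 68842 clusters kept. The members and lists were chosen with earlier results of these data known. The text names, per comparison, up to 10 members per direction with the smallest p under 0.05, the succinate dehydrogenase and cytochrome genes, isoform sets, each complex's smallest and largest p, and up to 4 genes per other list; a few more members are named to complete a complex, chosen after their values were seen. Symbols were matched to RefSeq (GRCr8, 55 of 55), and 5 chosen clusters lie on another chromosome than their gene. The number of arrays limits the precision. In a simulation of 9044 clusters, values were drawn independently and only a small part of the clusters was changed in SR. Of those changed 1.3-fold limma recovered 40%, and of those changed 1.2-fold 12%, between SR and CT. The real arrays differ from that setting, so these shares need not hold for them. Alternatives covered the filter, normalization, moderation, array weights, compared groups, cluster choice and each array left out.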

Additional observations from a re-analysis of the deposited data

Results flagged for a closer look

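Of 156 sets of 6 arrays (52 clusters in CT, SR and SS), 13 held an array whose gap to the next value exceeded Dixon's 95% limit. Chance flags about 1 in 20 such sets. In CT, replicate 3 was the lowest array for Atp5a1 (13.32, next 13.52), Atp5e (10.39, next 10.80), Atp5f1 (13.06, next 13.37), Cox7a2 (12.36, next 12.53) and Cox7c (6.56, next 7.09), and the highest for Cox8c (4.65, next 4.13). CT replicate 5 was the lowest for Atp5g1 (7.82, next 8.08) and the highest for Atp5hl1 (5.11, next 4.28), and CT replicate 4 was the highest for Cox4nb (6.91, next 6.63). In SR, replicate 1 was the lowest for Sdha (11.41, next 11.81) and replicate 2 for Cox7a2 (12.18, next 12.62) and Atp5hl1 (3.76, next 4.32). In SS, replicate 1 was the highest for Cox6b2 (4.74, next 4.61). CT replicate 3 is also the array with the highest median over all clusters. No member was past the adjusted threshold for the difference of SR and SS from their yoked groups.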

How the results depend on the processing

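The median member difference between SR and CT (0.195) kept its sign under every alternative run and moved by more than the spread between arrays only with the array median as a covariate (0.0916). The count of members at an unadjusted p under 0.05 in that comparison (16) was 10 with equal array medians, 10 with only the compared groups, 9 without SR replicate 5 and CT replicate 3 together, 5 with the covariate, and 10 to 18 with 1 array left out (10 without CT replicate 3). The 2 adjusted calls became 1 with no filter, 1 with another quantile normalization, 1 with equal array medians, 1 under the replicate block, 1 with own-locus clusters, 0 with only the compared groups, 0 without both arrays, 0 with the covariate and 12 with array weights, and ran from 0 (without SR replicate 3) to 8 (without SR replicate 2) with 1 array left out. Usmg5 passed in 23 of 24 such fits and Atp5b in 16. For SR against SS the 12 members became 7 without both arrays and 5 with the covariate, and ran from 4 to 13 with 1 array left out. The 0 adjusted calls there became 11 with array weights and ran from 0 to 2.

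For SS against CT, 2 members became 0 with another quantile normalization, equal array medians or own-locus clusters and 1 under the replicate block, without both arrays or with the covariate, and ran from 1 to 2 (1 without replicate 2, 3, 5 or 6 of either group). For YSR against CT, 1 became 2 with no filter or own-locus clusters, 0 with equal array medians or only the compared groups and 5 with array weights, and ran from 0 (without YSR replicate 1) to 2 (without CT replicate 4). For YSS against CT, 1 became 2 with no filter and 0 with equal array medians, only the compared groups or own-locus clusters, and ran from 0 (without CT replicate 2, 5 or 6 or YSS replicate 1 or 2) to 2 (without YSS replicate 3). For YSR against YSS, 1 ran from 0 (without YSR replicate 1) to 2 (without YSS replicate 1). For SR against YSR, 2 became 4 with another quantile normalization, equal array medians or the covariate, 11 with array weights and 1 with only the compared groups or own-locus clusters, and ran from 1 to 9. For SS against YSS, 0 became 1 with no filter and ran from 0 to 1 (without YSS replicate 1).

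Uqcrc2 changed sign with another quantile normalization (-0.045), equal array medians (-0.022), the covariate (-0.0364) and without both arrays (-0.052), and ran from -0.0222 to 0.0812 with 1 array left out. Cox7a2 changed sign with the covariate (-0.0252), and Cox6a1 ran from -0.216 to 0.00815. The cause of these shifts was not tested. Own-locus clusters, the covariate and the removal of both arrays were chosen after seeing the data. The sample labels do not say whether replicate numbers pair the rats, and the main fit used no pairing. Of 39 same-numbered pairs, 13 correlated above 0.1 (median -0.0176), which cannot decide it with so few arrays a group. Many members lie near or under the negative-control level, which limits their values.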
